A study of Mus musculus with 12 samples.

Results

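The guanylate-binding proteins are a family of large GTPases induced by interferon. All 10 genes named Gbp2, Gbp2b, Gbp3, Gbp4, Gbp5, Gbp6, Gbp7, Gbp8, Gbp9 and Gbp10 were taken by symbol from the 46078 gene identifiers counted in mouse bone marrow-derived macrophages, and all 10 were found. The cells were grown from marrow of male C57BL/6 mice for 7 days with supernatant of L929 cells, a source of macrophage growth factor. All mice lacked Apoe (ApoE-/-). The genotypes below are as given in the sample titles. The Dicer KO group is LysMcre/+;Dicerfl/fl;ApoE-/-, in which Cre driven from the Lyz2 (LysM) locus of myeloid cells deletes the floxed Dicer1 gene. The control group is titled LysMcre/+;Dicer+/+;ApoE-/-, but another label calls it wildtype and its files are marked as wildtype at LysM. All cultures received ethanol diluted 1:1000 overnight, then saline (vehicle) or LPS for 6 h at a labelled 100 ng/ul. The 4 groups of 3 libraries were control vehicle, control LPS, Dicer KO vehicle and Dicer KO LPS. No label ties a replicate to a mouse of its own, so every p-value measures the spread between these samples, which may be technical.

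Interferons signal through Janus kinases to transcription factors that bind GAS and ISRE elements near the start of their target genes, and the Gbp genes are textbook targets of this pathway. Lipopolysaccharide (LPS), which is shed by bacteria and sensed by TLR4, reaches the same pathway in macrophages by way of secreted interferon beta. The proteins belong to the dynamin superfamily, assemble on vacuoles and bacteria in the cytosol, and help the caspase-11 and AIM2 inflammasomes to sense bacterial products. Some of them, among them Gbp2, Gbp2b and Gbp5, carry a C-terminal site for a lipid (prenyl) anchor.

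The family lies in clusters on chromosomes 3 and 5 (GRCm38). Gbp5, Gbp7, Gbp3, Gbp2b and Gbp2 lie in this order on the forward strand of chromosome 3 within 144.0 kb. Gbp8, Gbp9, Gbp4, Gbp10 and Gbp6 lie on the reverse strand of chromosome 5 within 279.5 kb. RefSeq promoter sequences (GRCm38.p6) matched 5 of the 10 genes, all of them on chromosome 3, and are shown because 4 of these genes, all but Gbp2b, were called in all 5 comparisons below. The bases before the annotated start are chr3:142620413-142620662 for Gbp2, chr3:142594597-142594846 for Gbp2b, chr3:142559794-142560043 for Gbp3, chr3:142496684-142496933 for Gbp5 and chr3:142530086-142530335 for Gbp7. All are on the forward strand, and capitals mark matches to an ISRE, GAS or kappaB motif.
Gbp2: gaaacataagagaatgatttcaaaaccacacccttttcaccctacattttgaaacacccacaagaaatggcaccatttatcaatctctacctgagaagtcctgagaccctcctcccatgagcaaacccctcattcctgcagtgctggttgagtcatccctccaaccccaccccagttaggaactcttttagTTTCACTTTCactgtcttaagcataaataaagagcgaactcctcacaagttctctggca
Gbp2b: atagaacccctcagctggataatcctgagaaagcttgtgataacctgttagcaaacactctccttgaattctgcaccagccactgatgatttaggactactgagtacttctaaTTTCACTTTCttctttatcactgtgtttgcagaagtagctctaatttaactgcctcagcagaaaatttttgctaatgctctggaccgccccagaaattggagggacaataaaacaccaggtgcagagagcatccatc
Gbp3: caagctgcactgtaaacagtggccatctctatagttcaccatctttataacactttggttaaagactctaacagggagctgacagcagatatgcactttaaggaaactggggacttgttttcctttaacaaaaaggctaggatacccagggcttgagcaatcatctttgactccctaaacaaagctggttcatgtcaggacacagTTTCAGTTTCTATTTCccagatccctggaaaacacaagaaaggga
Gbp5: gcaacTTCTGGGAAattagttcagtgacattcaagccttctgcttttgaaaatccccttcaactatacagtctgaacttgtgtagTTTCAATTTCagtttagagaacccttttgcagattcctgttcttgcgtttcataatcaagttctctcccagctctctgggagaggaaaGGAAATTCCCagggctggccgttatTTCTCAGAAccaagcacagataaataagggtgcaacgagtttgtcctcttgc
Gbp7: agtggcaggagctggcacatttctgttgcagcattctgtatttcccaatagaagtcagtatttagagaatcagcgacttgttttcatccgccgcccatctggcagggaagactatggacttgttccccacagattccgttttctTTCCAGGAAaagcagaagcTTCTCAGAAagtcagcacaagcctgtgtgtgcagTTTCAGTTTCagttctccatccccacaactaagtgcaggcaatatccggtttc
The ISRE was searched on both strands as TTTC, any 2 bases, then TTTC. Such a match lay in a promoter of 5 of the 5 genes, against 3.99% of the 27025 genes in the table, and in 5 of their 6 promoters, against 3.44% of all 32851 promoters. Each promoter has the same length and runs to 50 bases past the start. The matches began 165 bases before the start in Gbp5, 137 in Gbp2b, 59 in Gbp2, 53 in Gbp7 and 45 in Gbp3, where a second match overlaps the first. A second annotated promoter of Gbp3 had no match. The GAS letters TTCNNNGAA matched at 2 places each in Gbp5 and Gbp7 and were in 8.30% of all promoters. The kappaB motif, searched on both strands as GGGA, any 2 bases, then TTCC, matched in Gbp5 77 bases before the start and in Gbp2 just after its start, outside the stretch printed, and were in 1.47% of all promoters. The RefSeq start of Gbp5 lies 2956 bases inside the GENCODE gene. These matches describe letters only, since binding was not measured.

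Libraries held 16172600 to 18886948 gene counts. Levels are given in edgeR's CPM, which divide each count by the TMM-adjusted size of its library. Dicer1, the deleted gene, fell from 43.7 ± 1.44 to 19.7 ± 0.369 CPM (SD, n = 3) in vehicle and from 49.4 ± 2.84 to 15.5 ± 1.10 CPM in LPS. Lyz2, the locus that carries Cre, fell from 5714 ± 336 to 14.1 ± 1.49 CPM in vehicle and from 4060 ± 200 to 18.9 ± 2.38 CPM in LPS. The genotypes therefore differ at Lyz2 as well as at Dicer1. Dicer KO held little Lyz2 RNA, although LysMcre/+ in its title names 1 allele without Cre. The reason was not tested. In each vehicle group 1 library was unlike its partners, replicate 3 in control and replicate 2 in Dicer KO. Its counts differed from theirs by a chi-square per degree of freedom of 8.40 to 14.1, against 2.30 and 2.54 for the other pair of each group.

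Reads can be shared between the close copies in this family. The coding sequences of Gbp6 and Gbp10 were 98.4% identical, and only 9.82% of the 50-base stretches of the Gbp6 transcript and 17.5% of those of Gbp10 were unique among annotated genes. Both share exons with the predicted gene Gm43302, which is listed at 0 in all 12 libraries, on 29.0% of Gbp6 and 46.3% of Gbp10 exon bases. The levels of Gbp6 and Gbp10 are therefore uncertain, as is the split between them. The other 8 genes had 78.8 to 99.1% unique stretches, lowest in Gbp8. Gbp2b and Gbp10 had 10 counts or more in only 4 of 12 libraries each, so their totals in counts are given below.

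Across the 4 groups the summed Gbp counts made up 0.0223 ± 0.000441% of gene counts in control vehicle, 0.0959 ± 0.0268% for Dicer KO vehicle, 0.649 ± 0.0301% for control LPS and 1.00 ± 0.00732% for Dicer KO LPS (SD, n = 3). Per kilobase of exon not shared with another gene, Gbp2 was the most abundant member in all 4 groups, with levels of 20.5, 103, 1077 and 1952 CPM per kb in the same order. In control vehicle it was followed by Gbp9 at 9.18, then Gbp3 at 6.95 and Gbp7 at 6.44, whose libraries overlapped, then Gbp5 at 1.96 and Gbp8 at 1.01 CPM per kb. Gbp4 at 0.209 and Gbp6 at 0.204 CPM per kb overlapped, as did Gbp2b and Gbp10 below them. Under LPS the order changed. In control LPS, Gbp5 at 387 CPM per kb ranked next after Gbp2, followed by Gbp3 at 274, Gbp7 at 94.7, Gbp9 at 77.3, Gbp6 at 17.9, Gbp4 at 10.2 and Gbp8 at 0.756, with no overlap between neighbours down to Gbp2b at 0.289, which overlapped Gbp10 at 0.213. In Dicer KO vehicle, Gbp3 at 41.3, Gbp9 at 31.5 and Gbp7 at 29.6 CPM per kb overlapped in turn, above Gbp5 at 10.2, and Gbp4 at 3.01, Gbp6 at 2.12 and Gbp8 at 1.96 overlapped in turn. In Dicer KO LPS, no neighbours overlapped, and Gbp3 at 728 CPM per kb stood above Gbp5 at 615, while Gbp4 at 66.7 stood above Gbp6 at 57.4. The share of Gbp5 in all Gbp counts went from 7.58% in control vehicle to 35.9% in control LPS and from 8.43 to 28.9% in Dicer KO.

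**Figure D1:**
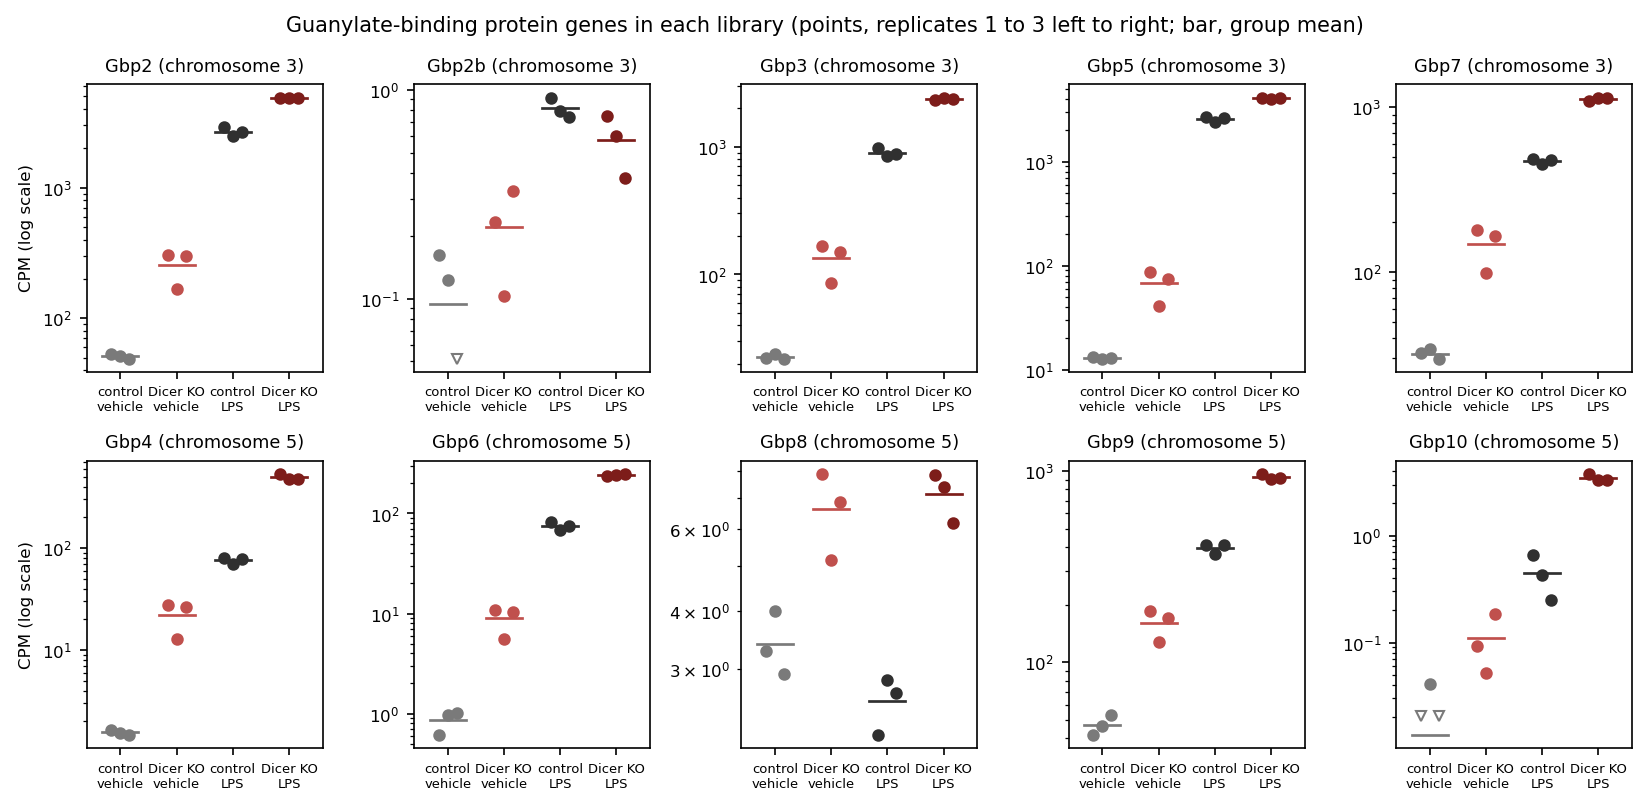
CPM of each of the 10 genes (log axis, its own scale in each panel) in the 12 libraries, by group. Points are libraries, bars are group means, and open triangles mark libraries with 0 counts, drawn at the bottom of the panel. In 8 of the panels, all but Gbp2b and Gbp8, control vehicle is lowest and Dicer KO LPS is highest.

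The first question was whether Dicer KO macrophages differ in these genes before any LPS. They did. Of the 10 genes, 9 were higher in Dicer KO vehicle than in control vehicle and none was lower, at an adjusted p under 0.05 over the 13837 genes tested with edgeR's quasi-likelihood test. For comparison, 25% of all genes tested were called higher, 21.2% lower and 46.2% in either direction. At a rise of at least 2-fold, 8 of the 10 genes passed, the low-count Gbp10 among them, against 3.9% of all genes. The median log2 fold change of the 10 was 2.36, beside 0.01 over all genes. Replicate 2 of Dicer KO vehicle was the lowest of its group for all 10 genes. It held 46.9 to 71.8% of the mean of its partners in the 8 genes other than Gbp2b and Gbp10. It was still above all control vehicle libraries in those 8, a trait not counted over all genes. Fewer cells of a type and less RNA per cell cannot be told apart in these bulk samples.

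On chromosome 3, Gbp2, which coats vacuoles and bacteria, had 52.9, 51.3 and 48.9 CPM in control vehicle and 305, 167 and 297 CPM in Dicer KO vehicle. The groups did not overlap, and the log2 fold change was 2.33 ± 0.20 (SE; adjusted p = 5.99e-06), a 5.02-fold rise. Gbp3 had 22.3, 23.8 and 21.9 CPM in control and 168, 86.1 and 150.1 CPM in Dicer KO. It rose by 2.57 ± 0.22 (adjusted p = 7.32e-06), again without overlap. Gbp5, reported to help the NLRP3 inflammasome assemble, had 13.4, 12.8 and 12.9 CPM against 87.9, 41.4 and 74.1 CPM. Its 3 Dicer KO libraries all lay above control, by 2.38 ± 0.24 (adjusted p = 2.39e-05). Gbp7, linked to oxidative defence at phagosomes, had 32.1, 34.2 and 29.8 CPM against 179, 98.8 and 165 CPM. This rise was 2.20 ± 0.19 (adjusted p = 7.38e-06). Gbp2b, the mouse gene also known as Gbp1, had 4, 3 and 0 counts in control and 5, 2 and 7 in Dicer KO. These overlapped, and the log2 fold change of 1.18 was not called (adjusted p = 0.160).

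On chromosome 5, Gbp4, described in mouse as a brake on IRF7, had 1.66, 1.55 and 1.46 CPM in control vehicle and 27.7, 12.7 and 26.6 CPM in Dicer KO vehicle. Its 14.4-fold rise was the highest of the 10, with a log2 fold change of 3.84 ± 0.34 (adjusted p = 1.62e-05). Gbp6 had 0.607, 0.978 and 1.00 CPM against 10.9, 5.56 and 10.4 CPM. The groups stood apart by 3.38 ± 0.31 (adjusted p = 6.36e-06), with the limit on its reads given above. Gbp9 had 41.6, 46.2 and 53.1 CPM against 185, 128 and 170 CPM. It rose by 1.78 ± 0.13 (adjusted p = 2.63e-07). Gbp8 had 3.28, 3.99 and 2.93 CPM against 7.86, 5.15 and 6.86 CPM, the smallest called rise, at 0.97 ± 0.16 (adjusted p = 0.000106). Gbp10 had 0, 1 and 0 counts in control and 2, 1 and 4 in Dicer KO, a ratio of 8.22 with a 95% exact interval of 1.06 to 370.4 that covers counting error only. Its call (log2 fold change 2.55, adjusted p = 0.0454) was lost in 13 of 18 alternatives, so 8 of the calls in vehicle rest on well-counted genes.

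Of 7 dendritic cell markers, 4 were tested. In vehicle, 3 were higher in Dicer KO and none was lower, beside 25% and 21.2% of all genes. In LPS, 3 were higher in Dicer KO and 1, Batf3, was lower, beside 28.8% and 27% of all genes. Flt3, Zbtb46 and Siglech had means under 0.5 CPM in every group. The summed level of all 7 was 17.0 to 20.9 CPM in control vehicle and 61.2 to 64.6 CPM in Dicer KO vehicle, and 17.4 to 21.3 against 61.3 to 61.9 CPM in LPS. Most of this was Itgax, which was higher in Dicer KO vehicle by 1.85 on the log2 scale (edgeR, adjusted p = 4.06e-12). Without Itgax the sums were 2.79 to 3.30 against 3.45 to 6.28 CPM in vehicle, and 7.45 to 9.50 against 16.7 to 18.3 CPM in LPS. All 8 macrophage markers were measured, with sums of 12330 to 13600 CPM in control vehicle and 6712 to 7608 CPM in Dicer KO vehicle. Without Lyz2, the Cre locus, the sums overlapped in vehicle, at 6964 to 7669 against 6700.0 to 7592 CPM. In LPS they did not, at 8551 to 8719 CPM in control and 9213 to 9397 CPM in Dicer KO. Among these markers Fcgr1 had means of 1384 CPM in control LPS and 2394 CPM in Dicer KO LPS. That rise is larger than the gap between the LPS sums. In vehicle its means were 230 CPM in control and 769 CPM in Dicer KO. Sums without Fcgr1 were not taken. Of the 8 macrophage markers, 2 were higher and 5, Lyz2 among them, were lower in Dicer KO vehicle, beside 25% and 21.2% of all genes. In LPS, 3 were higher and 3 were lower, beside 28.8% and 27% of all genes. Summed neutrophil markers overlapped between genotypes in vehicle, at 84.6 to 111 against 80.2 to 105 CPM. Summed B cell markers were at most 5.06 CPM and T and NK cell markers at most 10.5 CPM in any library, with Ncr1 at 0 throughout. Summed fibroblast markers were 0.627 to 1.26 CPM in the vehicle groups and 22.9 to 37.3 CPM in the LPS groups, and the rise was in Pdgfrb. The other 5 fibroblast markers summed to at most 1.28 CPM in any library. The part of these cell markers in the Gbp differences was not tested.

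The second question was how the family responded to LPS in control cells. In control LPS, 9 of the 10 genes were higher than in control vehicle and none was lower, beside 38% of all genes called higher, 41.1% lower and 79.1% in either direction. Gbp5 rose most, to 2667, 2409 and 2632 CPM from the control vehicle values above. This was a 197-fold rise, with a log2 fold change of 7.63 ± 0.27 (edgeR, adjusted p = 9.41e-10). Gbp6 came next with 82.4, 69.0 and 75.3 CPM, an 87.1-fold rise. Gbp2 reached 2907, 2491 and 2652 CPM (52.6-fold), and Gbp4 reached 79.3, 69.5 and 79.1 CPM (48.5-fold). Gbp3 reached 968, 841 and 870.2 CPM (39.4-fold). Gbp7 and Gbp9 rose less. Gbp7 reached 482, 453 and 479 CPM (14.7-fold), and Gbp9 reached 409, 366 and 410.4 CPM (8.42-fold). None of the control LPS libraries of these 7 genes overlapped control vehicle. The share of all genes without overlap was not counted. Gbp2b went from 7 to 39 counts in all, a ratio of 8.51 (95% exact interval 3.76 to 22.6), and Gbp10 from 1 to 21 counts, a ratio of 32.1 (5.16 to 1327). Both are among the 9 called. Gbp2b reached 10 counts in all 3 libraries only in control LPS, and Gbp10 only in Dicer KO LPS. They passed the filter on low counts through these groups, so the count rests on the 7 genes above. With only the compared groups fitted, 8 members were called.

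Gbp8 was the exception. It had 2.16, 2.85 and 2.67 CPM in control LPS, all below its control vehicle libraries, and its log2 fold change of −0.41 ± 0.20 was not called (adjusted p = 0.0676). It was called lower in 5 of 19 alternatives, among them scaling by library totals and leaving out control vehicle replicate 3. Gbp8 shares a first exon with Gbp4 and Gbp9, and its coding sequence is 92.9% identical to that of Gbp4.

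The third question was whether the genotypes differ once LPS is present. In Dicer KO LPS, 9 of 10 genes were higher than in control LPS and none was lower, beside 28.8% of all genes called higher, 27% lower and 55.8% in either direction. At 2-fold or more, 7 passed, against 6.1% of all genes. The median log2 fold change was 1.33, beside 2.36 in vehicle, and was 1.68 for the chromosome 5 genes and 0.86 for those on chromosome 3. The difference between the clusters was not tested. The 9, the 7 and the chromosome 5 median include Gbp10. This gene reached 10 counts in all 3 libraries only in Dicer KO LPS. It thus passed the filter on low counts through the group where it was high, and the other calls rest on well-counted genes.

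Gbp4 again differed most among the well-counted genes. It had 533, 477 and 477 CPM in Dicer KO LPS, all above the control LPS libraries, with a log2 fold change of 2.71 ± 0.20 (edgeR, adjusted p = 2.33e-06). Gbp6 had 237, 243 and 248 CPM, a difference of 1.68 ± 0.13 (adjusted p = 1.03e-06). Gbp8 had 7.82, 7.36 and 6.18 CPM, close to its level in Dicer KO vehicle, and differed by 1.47 ± 0.19 (adjusted p = 3.08e-06). Gbp3 had 2339, 2423 and 2368 CPM, Gbp7 had 1082, 1130 and 1143 CPM, and Gbp9 had 963, 903 and 915 CPM. These 3 differed from control LPS by 1.41 ± 0.19, 1.25 ± 0.17 and 1.23 ± 0.12 (adjusted p = 0.000129, 0.000134 and 1.87e-06). Gbp10 had 50, 44 and 44 counts against 10, 7 and 4, a ratio of 7.89 (95% exact interval 4.96 to 13.2).

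The 2 most abundant genes of the LPS-treated control, Gbp2 and Gbp5, had the smallest called differences. Gbp2 had 4880, 4833 and 4884 CPM in Dicer KO LPS, which was 0.86 ± 0.18 above control LPS (adjusted p = 0.00226). Gbp5 had 4129, 4023 and 4085 CPM, which was 0.67 ± 0.20 above control LPS (adjusted p = 0.0153). The Gbp5 call was lost when libraries were scaled by their totals, at 0.31 (adjusted p = 0.172), and without control LPS replicate 2, at 0.61 (adjusted p = 0.0530). Gbp2b had 10, 8 and 5 counts against 14, 13 and 12, and its log2 fold change of −0.49 was not called (adjusted p = 0.335).

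**Figure D2:**
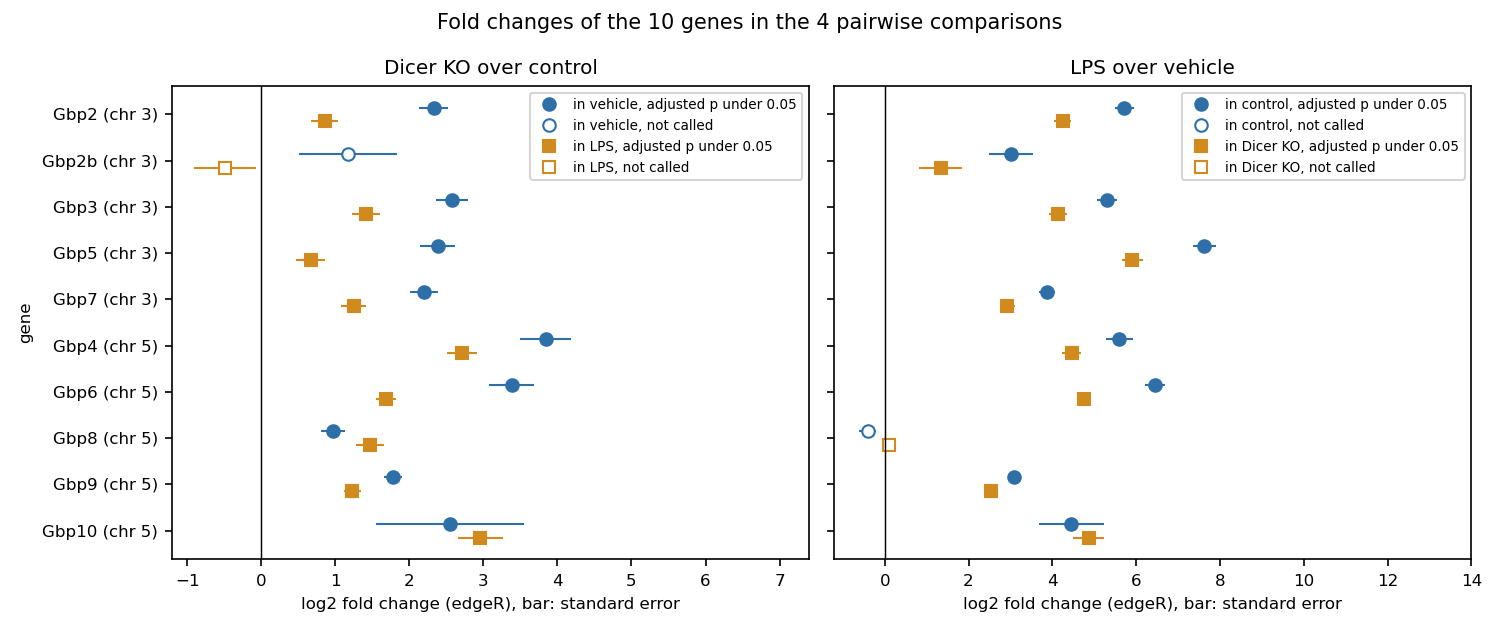
Log2 fold changes of the 10 genes for Dicer KO over control (left, in vehicle and in LPS) and for LPS over vehicle (right, in control and in Dicer KO). Bars are standard errors, and filled symbols are called at an adjusted p under 0.05. Except for Gbp8 and Gbp10, the symbol for vehicle lies to the right of that for LPS on the left side, at 3.84 against 2.71 for Gbp4.

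The LPS response was then compared between genotypes. Within Dicer KO, 9 of 10 genes were higher with LPS than with vehicle, beside 37.4% of all genes called higher, 42.7% lower and 80.1% in either direction. Gbp5 rose 60.1-fold in Dicer KO, against 197-fold in control. Gbp6 rose 26.8-fold, Gbp4 22.1-fold, Gbp2 19.0-fold and Gbp3 17.6-fold, each against 39.4-fold to 87.1-fold in control. Gbp7 rose 7.58-fold and Gbp9 5.76-fold. Gbp8 did not change detectably (log2 fold change 0.10, adjusted p = 0.581), and its direction turned to −0.05 without Dicer KO vehicle replicate 2. With library totals it was called lower, at −0.65 (adjusted p = 0.00113). The Gbp2b call (14 to 23 counts, edgeR, adjusted p = 0.0243) was lost in 5 of 18 alternatives. Gbp2b reached 10 counts in all 3 libraries only in control LPS, a group outside this comparison. With only the compared groups fitted, it was not tested and 8 members were called. Gbp10, also among the 9, reached 10 counts in all 3 libraries only in Dicer KO LPS, where it was high.

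The difference between the LPS responses, tested as the interaction, was called for 6 of the 10 genes. All 6 had a smaller fold response in Dicer KO. Over all genes, 18.8% were called this way, 14.9% the other way and 33.7% in either direction. The log2 difference was −1.72 ± 0.30 for Gbp5 (edgeR, adjusted p = 0.00186), −1.70 ± 0.37 for Gbp6 (0.00451), −1.47 ± 0.26 for Gbp2 (0.00173) and −1.16 ± 0.28 for Gbp3 (0.0106). It was −0.96 ± 0.25 for Gbp7 (adjusted p = 0.0147) and −0.55 ± 0.17 for Gbp9 (0.0260). The Gbp9 call was lost in 8 of 18 alternatives. Gbp4 had a difference of −1.14 ± 0.44 that was not called (adjusted p = 0.0766), but was called at −1.42 without Dicer KO vehicle replicate 2. Gbp8 had 0.50 (adjusted p = 0.140) and was not called, and Gbp2b and Gbp10 were too low for a reading. For these 6 genes, both the vehicle and the LPS levels were higher in Dicer KO.

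The level that Dicer KO cells held without LPS was set against the LPS level of control cells. Gbp9 in Dicer KO vehicle stood at 40.7% of its mean in control LPS, Gbp7 at 31.3%, Gbp4 at 29.4%, Gbp3 at 15.1%, Gbp6 at 11.9%, Gbp2 at 9.55% and Gbp5 at 2.64%. The matching shares in control vehicle were 11.9, 6.80, 2.05, 2.54, 1.14, 1.90 and 0.506%. Gbp8, which did not rise with LPS in either genotype, stood at 259% in Dicer KO vehicle and 133% in control vehicle.

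**Figure D3:**
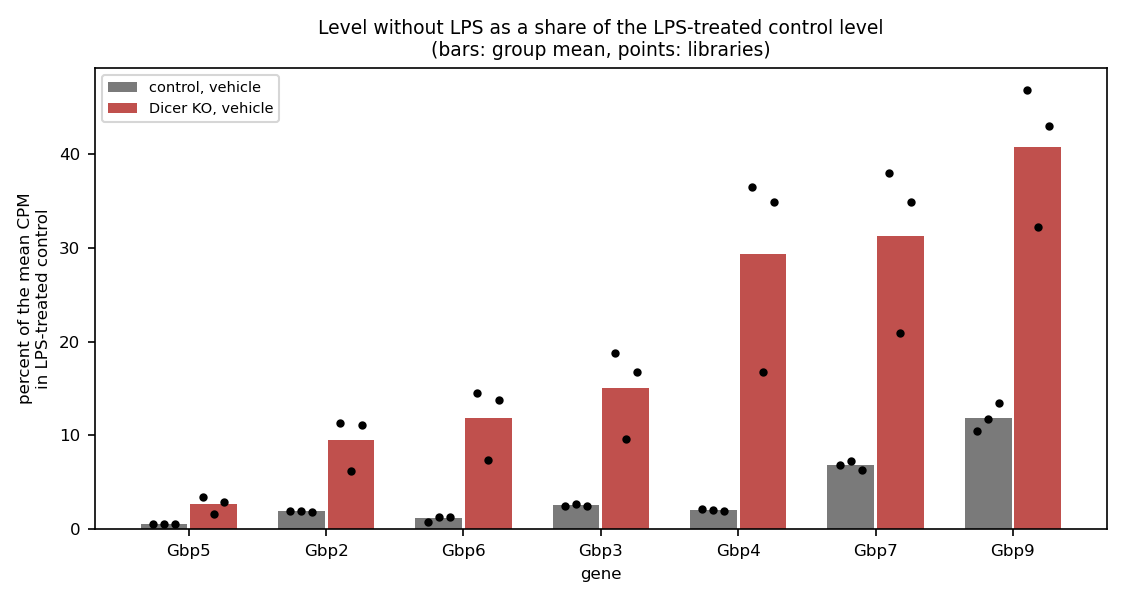
Mean CPM in vehicle as a percentage of the mean CPM in control LPS, for the 7 well-counted genes that rose with LPS. Grey bars are control, red bars are Dicer KO, and points are libraries. Dicer KO vehicle ranged from 2.64% for Gbp5 to 40.7% for Gbp9.

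To see whether the differences extended past the clusters, the 7 tested genes among 19 annotated within 200 kb of them were examined. Kyat3, Gtf2b and the antisense gene Gm15540 beside the chromosome 3 cluster were not called between genotypes in vehicle or in LPS. Abcg3, beside Gbp8, had log2 fold changes of −0.01 and 0.07 between genotypes and fell with LPS, by 5.03 in control and 4.96 in Dicer KO on the log2 scale. Lrrc8b, a subunit of a volume-regulated anion channel at the other end of the chromosome 5 cluster, was not called in vehicle and was lower in Dicer KO LPS by −1.04 (adjusted p = 8.89e-11). Gbp11, a polymorphic pseudogene that shares sequence with Gbp4 and Gbp8, went from 0.358 CPM in control LPS to 3.36 CPM in Dicer KO LPS, a log2 fold change of 3.22 (adjusted p = 4.72e-07). Mir6381 lies on the opposite strand inside Gbp2 and shares 24 of its 87 bases with Gbp2 exons. Its counts stayed at 6.28 to 7.75% of those of Gbp2 in every library, and without a known strand setting they cannot be told apart from Gbp2 reads. Gvin1, a very large interferon-inducible GTPase gene on chromosome 7, was higher in Dicer KO by 1.62 in vehicle and 0.57 in LPS on the log2 scale (adjusted p = 1.71e-08 and 0.000106).

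**Figure D4:**
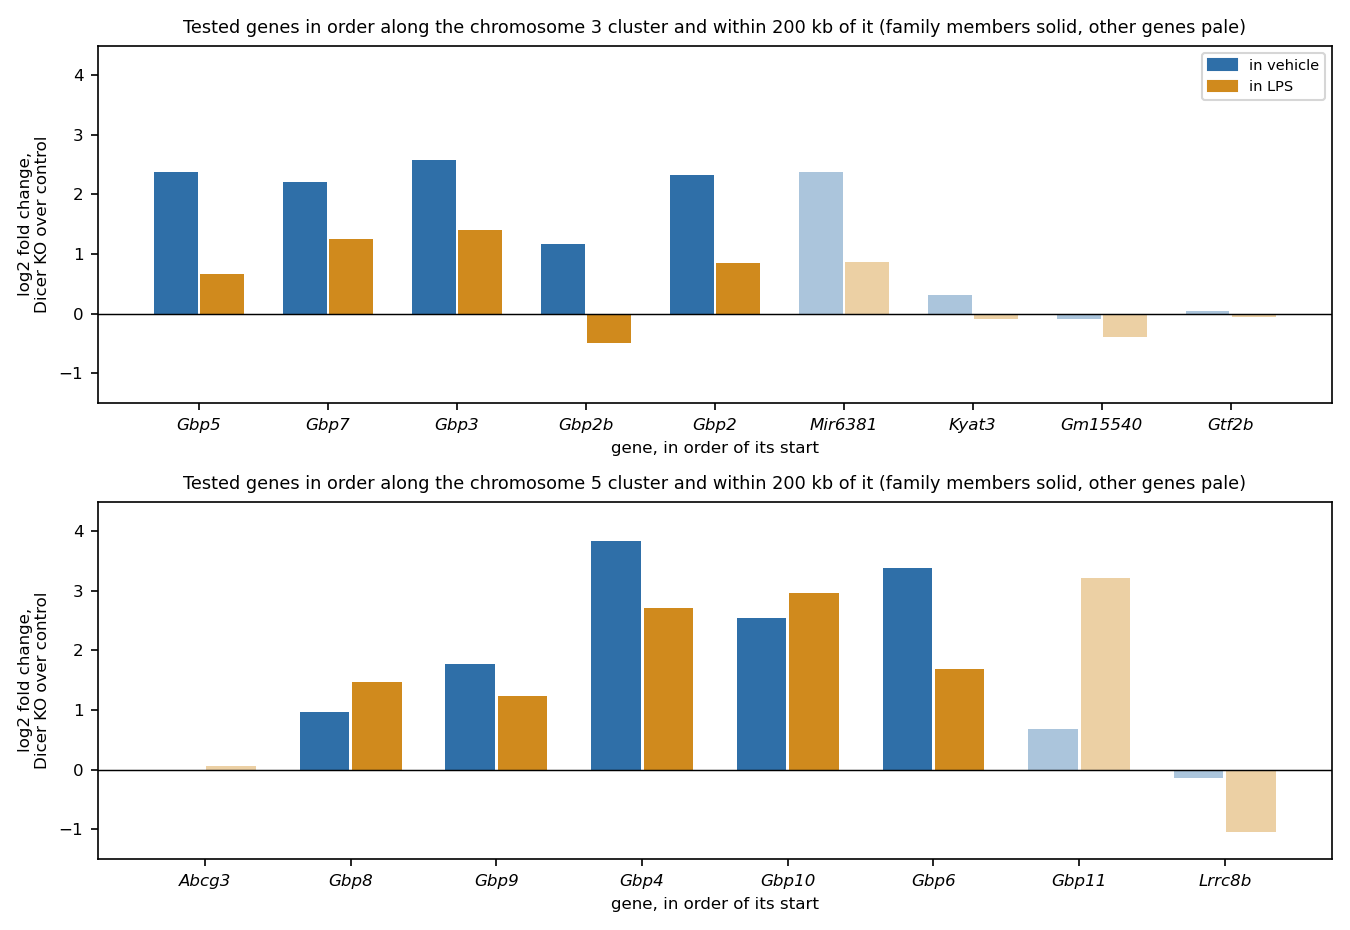
Log2 fold change of Dicer KO over control in vehicle and in LPS for the tested genes of each cluster and within 200 kb of it, in order of their starts. Solid bars are the 10 genes and pale bars are other genes. Kyat3, Gm15540, Gtf2b and Abcg3 lie between −0.40 and 0.31 and were not called, while Mir6381, which overlaps Gbp2, has bars like those of Gbp2.

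Among 19 genes of interferon signalling, 18 were tested. Of these, 13 were higher and 1 was lower in Dicer KO vehicle, with a list median of 0.58, and 15 were higher and 1 was lower in Dicer KO LPS, with a median of 0.68. Over all genes, 25% were called higher and 21.2% lower in vehicle, and 28.8% and 27% in LPS. The transcription factor genes Irf7 and Stat2 rose in Dicer KO vehicle by 2.37 and 1.96 on the log2 scale, and Usp18, which restrains the interferon receptor, by 2.89. In LPS, Irf1, which acts downstream of interferon gamma, was higher in Dicer KO by 1.26, Batf2 by 1.36, Irf9 by 0.78 and Socs1, an inhibitor of Janus kinases, by 1.12. Like 6 of the Gbp genes, Irf7, Stat2 and Usp18 had smaller fold responses to LPS in Dicer KO, with interactions of −1.53, −1.24 and −1.69. Over the list, 3 interactions were higher and 7 were lower, beside 14.9% and 18.8% of all genes. Ifnb1, which encodes interferon beta, had 0 counts in control vehicle and 11, 3 and 5 in Dicer KO vehicle, at least 7.44-fold higher against a floor of 3 counts over the group. It had 20 counts in control LPS and 80 in Dicer KO LPS. Ifng, which encodes interferon gamma, had 0 counts in both vehicle groups, 9 in control LPS and 13 in Dicer KO LPS, and was too low to test.

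The immunity-related GTPases, a neighbouring family that acts on the same vacuoles, moved in the same directions. All 7 were higher in Dicer KO in vehicle and in LPS, beside 25% and 28.8% of all genes, with medians of 2.54 and 1.47. In 6 of the 7, the fold response to LPS was smaller in Dicer KO, beside 18.8% of all genes. Irgm1, a regulator of the family, rose from a mean of 93.1 to 427 CPM in vehicle, a log2 fold change of 2.20 ± 0.09 (SE). Among 11 other dynamin-superfamily GTPases, 5 were higher and 1 was lower in Dicer KO vehicle (25% and 21.2% of all genes), with a median of 0.11. The interferon-inducible Mx1 and Mx2 rose by 2.88 and 2.41, whereas Dnm1l, which divides mitochondria, rose by 0.32 and the endoplasmic reticulum shaper Atl2 by 0.29.

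Of 12 inflammasome partners, 5 were higher and 3 were lower in Dicer KO vehicle (25% and 21.2% of all genes), and 7 were higher and 1 was lower in Dicer KO LPS (28.8% and 27%). Casp4, which encodes caspase-11, rose by 1.05 in vehicle and 1.05 in LPS, Casp1 by 1.03 and 0.99, and the DNA sensor Aim2 by 0.68 and 0.99. Gsdmd, whose product forms the pyroptotic pore, was higher by 0.62 in LPS. Nlrp3 had an interaction of 0.78 (edgeR, adjusted p = 1.52e-05), the opposite sign to the 6 Gbp genes called. Over the 12 partners, 5 interactions were called above 0 and none below, beside 14.9% and 18.8% of all genes. Of 8 prenylation enzymes, 2 were higher and 3 were lower in vehicle, beside 25% and 21.2% of all genes, and the list median was 0.02. Pggt1b, a subunit of a prenyl transferase, rose with LPS by 1.20 in control and 1.08 in Dicer KO. Of 15 genes for Atg8 conjugation and ubiquitin tagging, 7 were higher and 3 were lower in Dicer KO vehicle, beside 25% and 21.2% of all genes, led by the ubiquitin ligase genes Trim21 (1.25) and Rnf213 (1.74), while Map1lc3b fell by 0.31.

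The genes whose profile was most like that of the family were sought among 9230 protein-coding genes with a mean of at least 5 CPM. The measure was the Pearson correlation over the 12 libraries with the mean standardised log2 CPM of the 10 genes, and is a description, since the libraries share the 4 conditions. The 8 highest were Trim30b at 0.998, Enpp4, Samd9l and Daxx at 0.997, and Fcgr4, Psme4, Asah2 and Epsti1 at 0.996. Trim30b had a mean of 3.45 CPM in control vehicle, 19.8 CPM for Dicer KO vehicle, 57.2 CPM for control LPS and 233 CPM for Dicer KO LPS. Fcgr4, an activating receptor for antibodies, went from 63.9 to 179.9, 513 and 1032 CPM in the same order. The genes of the family correlated with their own mean profile at 0.96 to 0.996, except Gbp8 at 0.362, Gbp2b at 0.807 and Gbp10 at 0.868. Each gene is part of that mean, which raises its own value. The median over the 9230 genes was 0.0536.

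Dicer makes mature microRNAs, which pair by their seed with sites in transcripts. Small RNAs were not measured here. The 3′ untranslated regions of the 10 genes (GENCODE M21) were read for sites to 6 microRNAs known from macrophages. Sites were found in 2 genes, and the 4 microRNAs concerned are shown (RefSeq), with the seed, bases 2 to 8, in capitals.
let-7a-5p: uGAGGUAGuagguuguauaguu
miR-155-5p: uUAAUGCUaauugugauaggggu
miR-223-3p: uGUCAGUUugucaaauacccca
miR-142a-3p: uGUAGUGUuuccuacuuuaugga
Gbp7 held a site for let-7a, miR-155 and miR-223, and Gbp3 held one for miR-142a-3p. No site for miR-146a or miR-21a was found in any of the 10. Of the 11757 tested genes with such a region, 9.21% held a let-7a site, 8.19% a miR-155 site, 8.23% a miR-223 site and 6.10% a miR-142a-3p site. A miR-146a site was in 11.1% and a miR-21a site in 6.81%. At 1 or 0 of the 10 genes for each microRNA, the family was near these shares. The remaining genes of the family held no match to any of the 6 seeds in the transcript read for each. The part of microRNAs in the Gbp differences was not tested.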

How the data were processed

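Libraries were prepared with a kit for stranded mRNA (labels' protocols). STAR 2.5, DESeq2 (no version) and the builds mm10 and GRCm38.p5 appear in the submitters' processing notes. The files deposited by the authors hold whole-number read counts per Ensembl gene. Which counting program, strand setting and annotation were used is not given in the sources used here. Reads on no feature, ambiguous reads and reads not aligned uniquely (45.8 to 46.8%, 0.626 to 0.768% and 9.85 to 11.6%) stayed out of library sizes and tests, so reads shared between Gbp copies may be lost or split.

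Symbols came from GENCODE M21 (45229 identifiers matched). Counts were filtered with filterByExpr (13837 genes kept) and fitted with edgeR 4.0.16 in R 4.3.3, with TMM scaling, robust quasi-likelihood and 1 mean per group over all 12 libraries. The 5 comparisons were adjusted separately by Benjamini-Hochberg, two-sided, and called at an adjusted p under 0.05. Alternatives were DESeq2 1.42.0, other scalings, no filter, fewer groups, a replicate block and leaving out libraries. Counting intervals are exact and cover counting error only.

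The members and lists were chosen with earlier results of these data known. Text names the 10 members, Dicer1, Lyz2, up to 4 genes per list and comparison by adjusted p (1 gene that met this rule is not reported here), tested neighbours within 200 kb, and the 8 genes of most similar profile. The cell markers named and Gm43302, Gbp11, Gvin1, Ifnb1 and Ifng were reported in addition. For motifs and microRNA seeds, the coding transcript with the longest coding sequence was read.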

Additional observations from a re-analysis of the deposited data

Results flagged for a closer look

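For 6 of the 10 genes, the response to LPS differed between the genotypes by a test of the difference itself. On the log2 scale, Dicer KO minus control, it was −1.47 for Gbp2, −1.16 for Gbp3, −1.72 for Gbp5, −1.70 for Gbp6, −0.96 for Gbp7 and −0.55 for Gbp9. All 6 had a smaller fold rise in Dicer KO from a higher level in vehicle. Beside this, 33.7% of all genes tested were called in this comparison.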

How the results depend on the processing

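Of 50 gene results over 936 alternative values, 895 kept direction and side of the threshold, 28 lost the call, 9 gained it and 4 turned direction. The turns were Gbp8 with LPS in Dicer KO, at −0.65 with library totals, −0.050 without Dicer KO vehicle replicate 2 and −0.052 without both libraries unlike their partners, and the Gbp10 interaction, at −1.15 without control vehicle replicate 2. Leaving out 1 library gave −0.050 to 0.24 for the first and −1.15 to 0.99 for the second. Without that library, control vehicle has no Gbp10 count, and the log2 fold change of Gbp10 goes from 2.55 to 4.11 in vehicle and from 4.45 to 6.01 for LPS in control. Gbp4 gained the interaction call with library totals (−1.36), DESeq2 (−1.09) and without Dicer KO vehicle replicate 2 (−1.42). The cause was not tested.

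Requiring also a 2-fold change, the genes called were 960, 1762, 5246, 5835 and 939 (genotype in vehicle and in LPS, LPS in control and in Dicer KO, interaction), against 6394, 7724, 10948, 11078 and 4669. Leaving out 1 library gave 5254 to 6950, 6979 to 8004, 10586 to 11153, 10735 to 11287 and 4021 to 5021 genes, and 8 to 9, 8 to 9, 9 to 10, 8 to 9 and 5 to 7 members. Without both unlike libraries, 8, 9, 10, 8 and 7 members were called. Library totals moved the median of all genes to −0.12, −0.38, −0.58, −0.85 and −0.27, and the calls to 2229 higher and 4577 lower, 1885 and 7626, 3066 and 8737, 2637 and 9623, and 997 and 5136, against 3459 and 2935, 3983 and 3741, 5258 and 5690, 5173 and 5905, and 2067 and 2602. The members called were then 8, 8, 10, 9 and 7, with Gbp8 lower in both LPS comparisons. With library totals the median CPM over the 10 members was 10.7 in control vehicle, 214 in control LPS and 505 in Dicer KO LPS, against 8.20, 236 and 711.

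Same-numbered replicates correlated over 0.1 in 6 of 18 cases (−0.43 to 0.35). With 3 libraries per group, this cannot settle whether the numbers pair the samples. With the replicate number as a block, 6310, 7675, 10918, 11034 and 4636 genes and 8, 9, 9, 9 and 6 members were called. Depth limits Gbp2b and Gbp10.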
